A study of Mus musculus with 20 samples.

Results

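Cytosolic ribosomal protein genes were described across hearts of 2 mouse models of Down syndrome and their wildtype (WT) littermates. They were taken as all protein-coding genes whose symbol starts with Rpl or Rps and a digit, with Rpsa, Rplp0, Rplp1 and Rplp2 added and with the Rps6k kinases and pseudogenes left out. The rule found 90 of the 48795 genes in the table: 54 symbols of the large subunit and 36 of the small subunit. Of these, 77 are the single genes of ribosomal proteins (46 large, 31 small), and 12 were classed as further copies of such a gene. Whether each further copy encodes a ribosome part was not checked. Rps19bp1 carries a matching symbol but is a regulator and not a ribosome part.

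Poly(A)-selected RNA of 20 whole embryonic hearts at E13.5 was sequenced, with 5 hearts in each of 4 groups on a C57BL/6J background. Dp3Tyb hearts carry Dp(16Mir802-Zbtb21)3TybEmcf and Ts1Rhr hearts carry Dp(16Cbr1-Fam3b)1Rhr, each a duplication of a stretch of mouse chromosome 16. Each strain was set against WT littermates of its own, and a strain with its littermates is called a cohort. Replicates are numbered here by sample order within each group, not by a label. The labels name heart defects for Ts1Rhr replicates 1 and 2 and none for the other 3. All 5 were kept in 1 group, since no such defects are described for this strain. In all, 3 members lie on chromosome 16 (Rpl24, Rpl35a and Rpl39l), and none of them lies between the ends of the Dp3Tyb duplication.

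A ribosome pairs a large subunit, which joins amino acids, with a small subunit, which reads the mRNA, and nearly every one of its proteins is present once per particle. Their mRNAs are among the most abundant of a growing cell, and most begin with a run of pyrimidines, the 5′ terminal oligopyrimidine motif, through which mTOR signalling and Larp1 govern their translation together. Some ribosomal proteins have a second gene copy that is used in particular tissues, such as Rpl3l in striated muscle and Rpl10l and Rpl39l in the male germ line. Loss of 1 copy of many of these genes causes Diamond-Blackfan anaemia in people.

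The start of the gene carries this motif, so RefSeq windows on assembly GRCm38.p6 were searched on the transcribed strand from 20 bases before to 30 bases after the annotated start for a C followed by at least 6 bases that were each C or T. Of the 57 single genes with an entry, 35 held such a run (61.4%), against 25.05% of the 27025 genes in that table. On the opposite strand the same run was found for 14.04% of the single genes and 29.1% of all genes. RefSeq starts can be off by some bases, so a run is a description of the letters and not a mapped start. The windows below were chosen among genes that hold a run and recur in the results, 3 that were lower, 3 that were higher and 1 that was level where the mitochondrial share of reads was high, followed by the pair Rps27 and Rps27l. Capitals mark the run, which began at -19 for Rps25 and -12 for Rps27l relative to the annotated start and ended before it.
Rps19, chr7:24884911-24884940, plus strand: gtggagggCTCTCCCacgcggtcaccacgc
Rpl18, chr7:45718064-45718093, plus strand: gcaggccgCTCTTTCCCCgcccactccggc
Rpl22l1, chr3:28805503-28805532, plus strand: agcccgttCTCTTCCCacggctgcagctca
Rpl35, chr2:39005117-39005146, minus strand: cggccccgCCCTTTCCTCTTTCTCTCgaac
Rps26, chr10:128626481-128626510, minus strand: cgccggatCCTCTTTCgagtcttggctcca
Rps24, chr14:24490668-24490697, plus strand: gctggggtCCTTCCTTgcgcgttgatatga
Rps25, chr9:44407687-44407716, plus strand: ccgggcttCCTTTTTTTCCgacatcttagc
Rps27, chr3:90213629-90213658, minus strand: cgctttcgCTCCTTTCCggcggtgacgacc
Rps27l, chr9:66946066-66946095, plus strand: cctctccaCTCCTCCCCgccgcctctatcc

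Before the comparisons, 1 feature of the libraries has to be stated. Transcripts encoded by the mitochondrial genome took 4.85% to 7.17% of the reads in 13 hearts and 10.5% to 19.5% in the other 7, which were WT of Dp3Tyb replicate 5, Dp3Tyb replicate 5, WT of Ts1Rhr replicates 1, 2 and 4, and Ts1Rhr replicates 1 and 2. These 7 libraries held 6.60 to 17.02 M reads (mega, M), against 12.2 to 19.6 M reads in the 13. Heart muscle markers were abundant in all 20 (Myh7 at 88996 or more), and the liver marker Alb stayed at or below 85.9. Values are normalised read counts, reads divided by a library factor, and they compare 1 gene between hearts but not genes of different length.

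Ribosomal protein mRNA was abundant in every heart. Together the members took 2.09% to 2.88% of all reads. The single genes averaged from 924 (Rpl27, for which pseudogenes held 55.9% of the joint reads) to 15303 (Rpl4, a protein of the exit tunnel) over the 10 WT hearts. Divided by the length of the reference transcript, the highest levels of the large subunit were those of Rpl23a and Rpl7a, at 12812 and 8616 per kb, and of the small subunit those of Rps3a1 and Rps2, at 10602 and 9190 per kb. The lowest that passed the filter on low values were Rpl37 and Rpl37a, at 313 and 655 per kb, and Rps27rt and Rps23rg1, at 112 and 16.6 per kb. Levels per kb depend on the reference transcript taken for each gene, at both ends of the order. Those of Rpl37 and Rpl37a rest on reference transcripts of 6111 and 3762 bases, which are long for genes that encode such small proteins.

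Of the 12 further copies, Rpl36al, the second gene for the eL42 protein, had the highest read count, at 1970 ± 814 (SD, n = 10 WT hearts). Per kb of reference transcript it was at 900, below Rpl35rt (1649), Rps27l (1268) and Rpl22l1 (1265). Rpl10l had no read in any heart. Rpl3l stayed between 1.55 and 12.8 and Rpl39l between 0 and 3.90, so the muscle and germ line copies were at or near the limit of detection at E13.5. Genes were tested where 5 or more of the libraries compared had a value of 10 or more, which 86 of the 90 members did. Besides Rpl10l, Rpl3l and Rpl39l, Rpl27rt was not tested.

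The first question was whether either duplication changed the ribosomal protein genes. In Dp3Tyb hearts none of the 86 members passed limma's test (Benjamini-Hochberg adjusted p under 0.05 over all 14763 genes), where 0.0542% of all genes did. No member had an unadjusted p under 0.05, where 2.8% of all genes did, and DESeq2 and edgeR on whole reads likewise called 0 members. For all 86 members the values of the Dp3Tyb hearts overlapped those of the WT hearts, where 0.501% of all genes were higher and 0.474% lower without overlap. The median difference over the members was 0.01 on the log2 scale, beside -0.0027 over all genes tested, and single members ranged from -0.28 to 0.12.

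In Ts1Rhr hearts none of the 86 members passed the same test either, where 0.0269% of 14867 genes did. No member had an unadjusted p under 0.05, where 5.52% of all genes did, and DESeq2 and edgeR called 0 members. The values of the 2 groups overlapped for all 86 members, where 0.619% of all genes were higher and 0.498% lower without overlap. The median difference was -0.03 on the log2 scale, with members from -0.26 to 0.23. The difference between the strains' own changes, tested in 1 fit of the 20 hearts, called 0 members where 0.013% of all genes were called, and no member had an unadjusted p under 0.05 where 1.52% of all genes did. edgeR called 0 members in this contrast as well and DESeq2 called 0, with 1 member at an unadjusted p under 0.05.

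**Figure D1:**
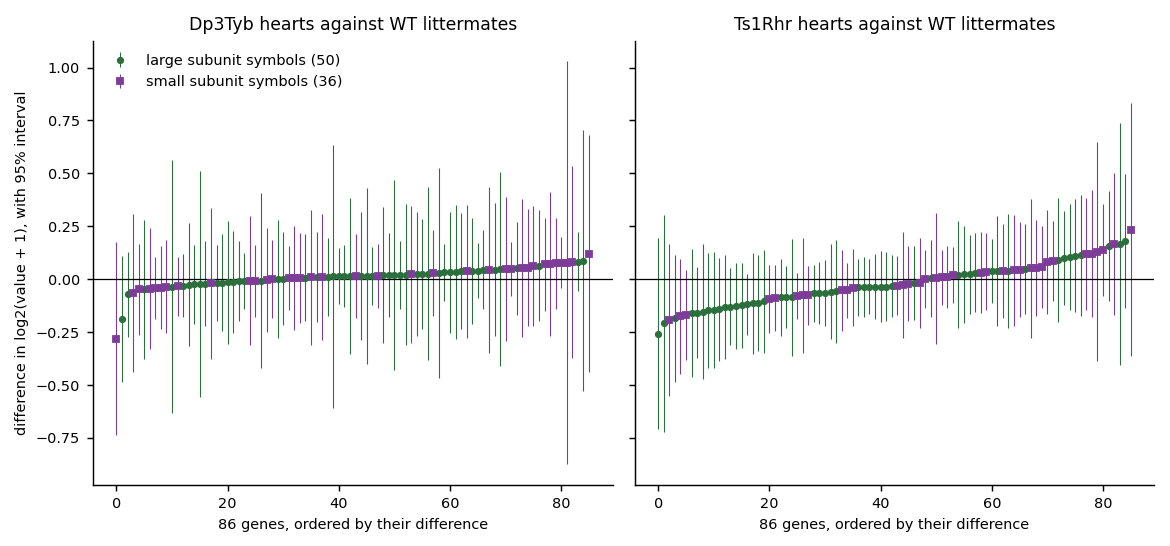
Difference in log2(value + 1) between mutant and WT hearts for 86 ribosomal protein genes, each cohort ordered by its own differences, with 95% intervals from limma over 5 against 5 hearts. Every interval spans 0, and the widest is that of Rps14 in both panels.

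A missed threshold does not show that levels were equal, so the intervals are given. In the Dp3Tyb cohort the 95% intervals of 80 of 86 members lay wholly within a 1.5-fold change and 85 within a 2-fold change, Rps14 being the exception. In the Ts1Rhr cohort these counts were 81 and 86. The members whose interval reached a 1.5-fold change in both cohorts were Rps14, Rpl22l1, Rpl35, Rpl36al and Rps23rg1, and Rps19 did so in the Dp3Tyb cohort.

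By subunit, the medians over the single genes in Dp3Tyb hearts were 0.01 (46 large) and 0.02 (31 small), with 32 and 23 of them above 0. In Ts1Rhr hearts they were -0.05 and 0.01, with 16 and 18 above 0. Large subunit genes took 59.8% ± 1.51 of the ribosomal protein reads in Dp3Tyb hearts and 59.96% ± 1.82 in their WT littermates (SD, n = 5). The values were 60.2% ± 1.01 in Ts1Rhr hearts and 61.0% ± 1.43 in theirs. The mean mitochondrial share was 8.45% in Ts1Rhr hearts and 10.5% in their WT littermates. It was 7.71% in Dp3Tyb hearts and 8.10% in theirs. The part of this share in the subunit values was not tested.

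The 5 members with the smallest unadjusted p-values in each cohort show the size of what was measured. Rps16, a small subunit protein near the site of decoding, had 2793, 2988, 2980, 2799 and 2924 in Dp3Tyb hearts and 2950, 2723, 2743, 2704 and 2610 in WT hearts. All 5 Dp3Tyb values lay above 4 of the WT values, and WT replicate 1 was above 3 of them. The difference was 0.08 ± 0.06 on the log2 scale (SE, unadjusted p = 0.187, limma adjusted p = 0.99996). Pseudogenes named after Rps16 held 17.2% of their joint reads, so its count is uncertain.
The others were Rpl27 at -0.19 ± 0.14, Rps23rg1 at -0.28 ± 0.21, Rpl29 at 0.08 ± 0.06 and Rps25 at 0.05 ± 0.06 (log2, SE). Once pseudogene reads were added, the difference of Rpl27 was 0.08, the opposite sign.

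In Ts1Rhr hearts the smallest p-value was that of Rpl32, which lies on the outer face of the large subunit. It had 5378, 5246, 4837, 5407 and 4678 in Ts1Rhr hearts and 5521, 5323, 5429, 6134 and 5328 in WT hearts. The upper 2 Ts1Rhr values lay above the lower 2 WT values, so the groups overlapped. The difference was -0.12 ± 0.07 (SE, unadjusted p = 0.0967, limma adjusted p = 0.795). Rps27l, a copy of Rps27 that p53 induces, was at -0.17 ± 0.10, Rpl30 at -0.16 ± 0.10, Rps25 at -0.08 ± 0.05 and Rpl17 at -0.13 ± 0.08, all with a limma adjusted p of 0.795. Rps25, which some viral mRNAs need for internal initiation, thus had differences of opposite sign in the cohorts, neither of which passed.

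Genes that make or govern ribosomes were read from lists of known function. Of 27 translation factors, 40 ribosome biogenesis genes, 16 genes of RNA polymerase I and 5S transcription, 20 regulators of ribosomal protein mRNAs and 12 genes of the p53 response to ribosomal stress, 0 passed limma's test in either cohort. Their medians lay between -0.04 and -0.01 in Dp3Tyb hearts and between -0.06 and 0.12 in Ts1Rhr hearts on the log2 scale. Larp1, which binds the oligopyrimidine motif, differed by 0.01 ± 0.06 and 0.02 ± 0.07 (SE). Fau and Rack1, ribosome parts whose symbols the rule does not cover, also did not pass. Lung and foregut markers, which a dissected heart can carry, had a median of 1.80 in Dp3Tyb hearts and -1.63 in Ts1Rhr hearts over 7 genes, none past the threshold.

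Members varied among hearts of the same genotype. The SD within groups ran from 0.05 to 0.68 on the log2 scale over the single genes, with a median of 0.19, beside 0.22 over all 15348 genes tested. Among the 86 members tested, Rps25, Rps16 and Rpl7 had the smallest SDs (0.05, 0.07 and 0.07), and Rps14, Rpl22l1 and Rpl36al the largest (0.68, 0.50 and 0.48). A single axis held 84.2% of the variance of the single genes within groups, beside 36.4% for all genes tested. Genes at its 2 ends moved in opposite directions, since the mean over all single genes held only 6.85% of that variance.

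The relation of this axis to the mitochondrial share was not measured. A fit of each gene's level to that share was chosen after the data were examined, so it tests a pattern on the same data that prompted it. edgeR's quasi-likelihood test on whole reads, with the 4 groups as terms over 20 hearts, called 70 of the 86 members (33 higher and 37 lower with a higher share). Of all 15348 genes tested, 28.4% were called higher and 29.3% lower, 57.8% in all. Most of the transcriptome moved with this share, so the count of members is not a result particular to ribosomal proteins. In these whole hearts fewer cells of a type and less RNA per cell cannot be told apart.

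Rps14, a protein of the small subunit platform whose loss underlies the anaemia of the 5q- syndrome, had the steepest slope. It had 4766, 4311, 4876, 4430 and 1216 in the WT hearts of the Dp3Tyb cohort and 4591, 4632, 4702, 4746 and 1491 in Dp3Tyb hearts. In the Ts1Rhr cohort it had 2920, 2913, 3740, 1612 and 4584 in WT hearts and 2965, 2102, 4565, 4376 and 4255 in Ts1Rhr hearts. All 7 hearts over 10% mitochondrial reads (1216 to 2965) lay below all 13 others (3740 to 4876), in every group. The fitted slope was -0.14 on the log2 scale per percentage point (edgeR adjusted p = 1.38e-13).
Rps19, the gene most often mutated in Diamond-Blackfan anaemia, lay at 1195 to 1980 in the 7 hearts and 2193 to 2967 in the 13. Rpl18 lay at 1917 to 2722 and 2981 to 3654, and Rplp1, a stalk protein that recruits elongation factors, at 2481 to 3317 and 3490 to 5301. None of these 3 genes overlapped between the 2 sets of hearts either. Their slopes were -0.08, -0.06 and -0.06 (log2 per point).

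Other members were higher in the same 7 hearts. Rpl35, a protein at the mouth of the exit tunnel, had 2585, 2545, 2590, 2331 and 6072 in the WT hearts of the Dp3Tyb cohort and 2618, 2633, 3130, 2771 and 5448 in Dp3Tyb hearts. In the Ts1Rhr cohort it had 4308, 4218, 3305, 6419 and 2977 in WT hearts and 4014, 4877, 2932, 3041 and 2698 in Ts1Rhr hearts. All 7 hearts over 10% (4014 to 6419) lay above the 13 others (2331 to 3305), with a slope of 0.09 (edgeR adjusted p = 5.43e-14).
Rpl23, which lies at the joint of the subunits, had a slope of 0.07, Rps26 of 0.07, Rpl5 of 0.06 and Rps24 of 0.05. Rps26, at the exit of the mRNA channel, lay at 6771 to 9400 in the 7 hearts and 4267 to 5639 in the 13. Rpl5, which with Rpl11 forms the 5S particle that restrains Mdm2, lay at 4250 to 6127 and 2724 to 4116.
Rps25 (2969 to 3267 against 2934 to 3410) and Rpl7 (7918 to 8811 against 8237 to 9507) overlapped widely, with slopes of -0.0010 and -0.0081 that did not pass the test. Of the 86 members, 13 were higher and 20 lower in the 7 hearts without overlap, where 8.4% of all genes were higher and 6.45% lower.

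**Figure D2:**
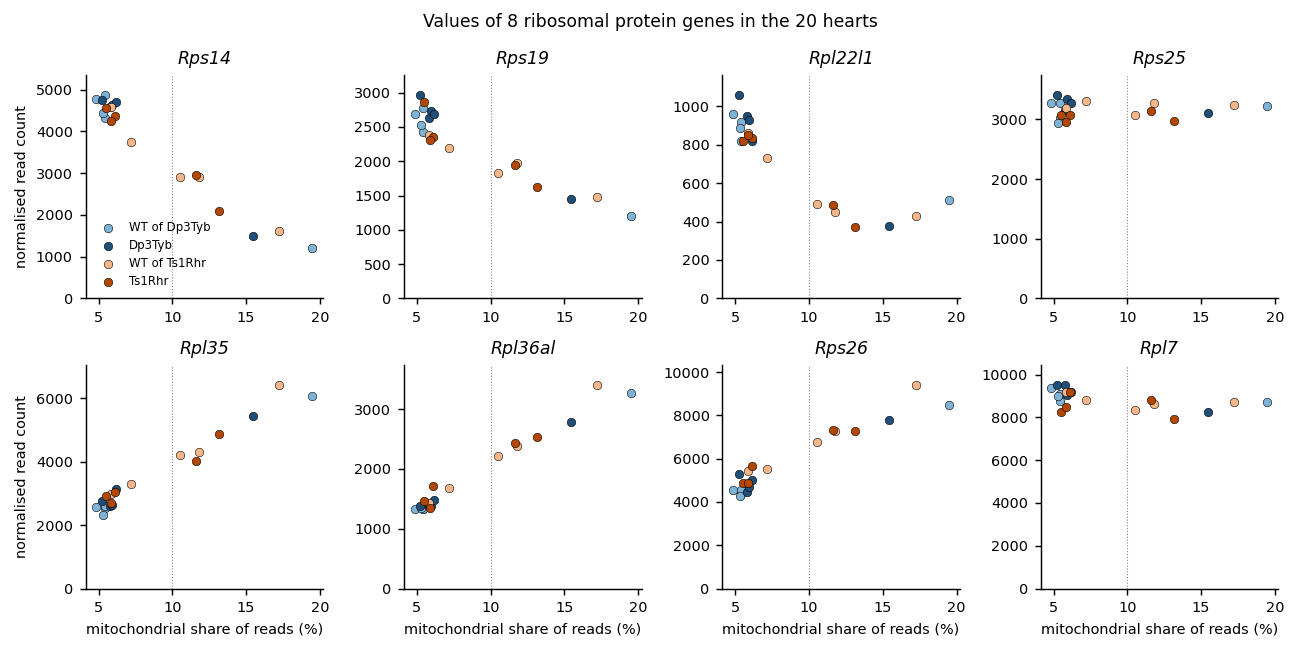
Normalised read count of 8 ribosomal protein genes (y axis, from 0) against the percent of reads from mitochondrially encoded transcripts (x axis) in 20 hearts, coloured by group, with a dotted line at 10%. Rps14, Rps19 and Rpl22l1 are lower and Rpl35, Rpl36al and Rps26 higher in the 7 hearts to the right of the line, while Rps25 and Rpl7 overlap.

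By place in the ribosome, all 3 proteins of the P stalk (Rplp0, Rplp1 and Rplp2) and all 3 of the mRNA entry channel (Rps2, Rps3 and Rps9) fell with a higher mitochondrial share. Of the 8 proteins that line the exit tunnel 7 rose and Rpl39 did not pass. Other places were mixed: of 4 proteins of the decoding centre and head 2 rose and 1 fell, and of the 5S particle Rpl5 rose and Rpl11 did not pass. Of 19 genes mutated in Diamond-Blackfan anaemia, 9 rose and 8 fell. Of the single genes, 22 large subunit genes rose and 15 fell, and 9 small subunit genes rose and 19 fell. These counts stand beside 28.4% of all genes higher and 29.3% lower, and no group was tested against other genes. Large subunit genes took 60.9% to 63.3% of the ribosomal protein reads in the 7 hearts and 58.9% to 60.1% in the 13.

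**Figure D3:**
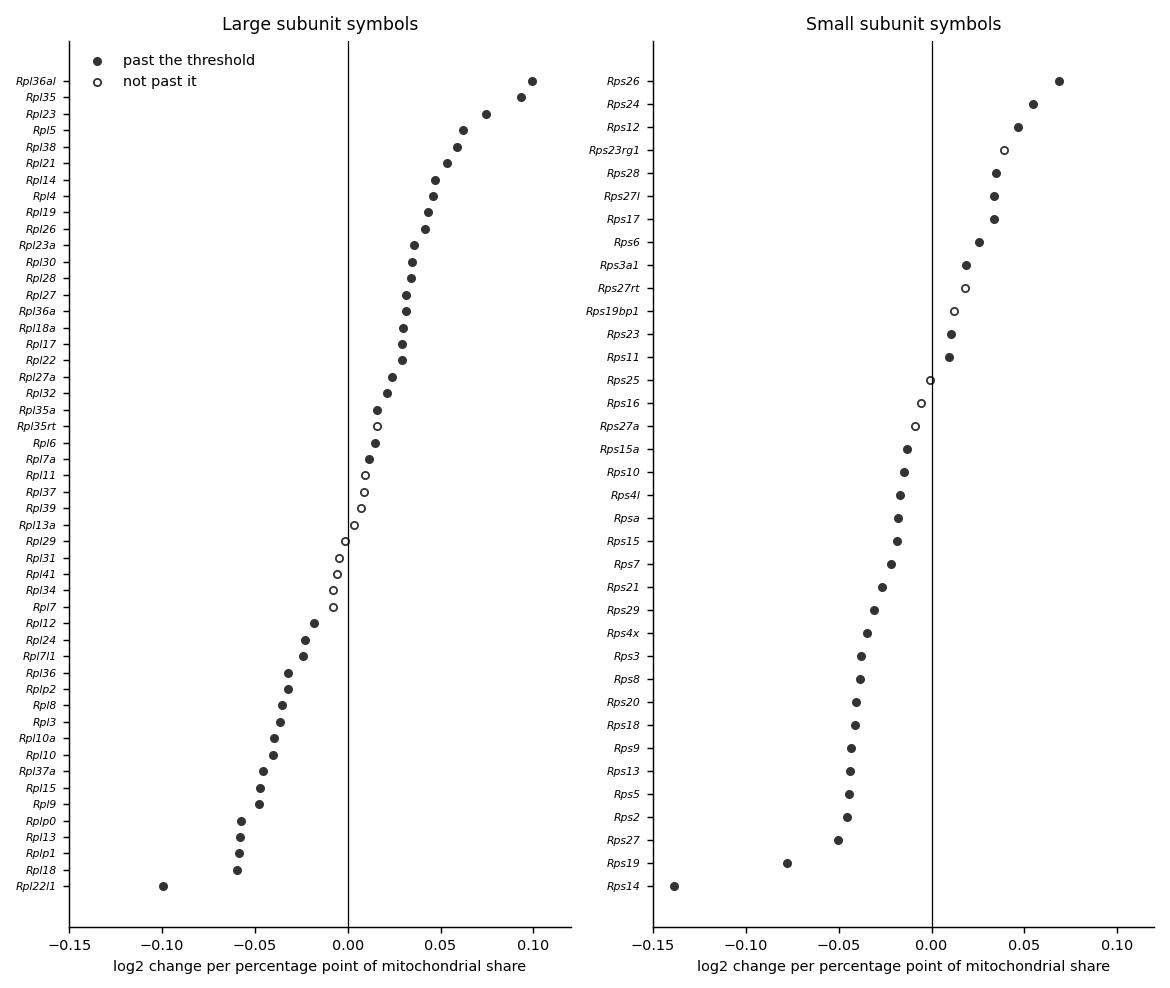
Log2 change per percentage point of mitochondrial share (x axis) for the 86 members (y axis, by subunit), fitted by edgeR over 20 hearts with the 4 groups as terms. Filled points passed the threshold; the small subunit runs from Rps14 at -0.14 to Rps26 at 0.07, the large from Rpl22l1 at -0.10 to Rpl36al at 0.10.

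The calls depended on the 7 hearts. Within the other 13, which spanned only 4.85% to 7.17% mitochondrial reads, 0 members passed edgeR's test, where 0.0195% of all genes did, and 15 had an unadjusted p under 0.05, where 7.3% of all genes did. Of the 70 members called over 20 hearts, 52 kept the sign of their slope in the 13, and all 70 did in each cohort alone. Both counts reuse hearts that gave the calls, and the same counts over all genes were not made. In the 13 hearts the slopes of Rps14, Rpl35 and Rpl36al were -0.15, 0.08 and 0.15, near those over 20 hearts or larger. That of Rpl5 turned sign (-0.0030), those of Rps26, Rpl23 and Rpl18 were smaller (0.00071, 0.025 and -0.038), and that of Rplp1 was larger (-0.25). In the Dp3Tyb cohort alone, with 2 such hearts, 71 members passed beside 50.2% of all genes, and in the Ts1Rhr cohort alone, with 5, 50 members passed beside 35.5%. With total reads as a further term 56 passed (17 higher and 39 lower) beside 37.3%. Some markers of cell types were called over the 20 hearts too, beside 28.4% of all genes higher and 29.3% lower. No marker list was tested against other genes. Of 8 macrophage markers 1 rose and 4 fell, of 11 erythroid markers 6 fell, of 8 fibroblast and mesenchyme markers 2 rose and 3 fell, and of 14 heart muscle markers 7 rose and 6 fell. The summed macrophage markers lay at 1080 to 1679 in the 7 hearts and 1237 to 2003 in the 13, and those of fibroblasts and mesenchyme at 62675 to 84027 and 63680 to 117038. Heart muscle markers lay at 454284 to 581221 and 355339 to 554236. The erythroid sum lay at 35717 to 174308 and 54886 to 245690. The part of these cells in the result was not tested.

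Genes that rose and fell were set side by side by their start and composition. The run stood in 15 of 23 single genes that rose and in 14 of 25 that fell, among those with an entry. The median GC content of the reference transcript was 50% in the 31 that rose and 52.5% in the 34 that fell, with ranges that overlapped. Over the 77 single genes the slope had a rank correlation of -0.22 with GC content and 0.04 with transcript length, beside -0.46 and 0.05 over all genes with a value. Genes are not independent replicates, and these values are descriptions.

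The paralogue pairs ask whether the balance between a gene and its further copy changed. The ratio of copies was tested for the 6 pairs with both genes expressed, by an exact permutation test of 5 against 5 hearts, 2-sided, where the smallest possible p is 0.00794. After adjustment over 12 ratios a change in 1 ratio alone could not have passed 0.05, so the test was not able to call a single pair. None of the 12 ratios passed (smallest adjusted p = 0.944, exact test), and the smallest unadjusted p was 0.222, that of Rpl7l1 to Rpl7 in Dp3Tyb hearts at -0.09 on the log2 scale (a ratio of 0.941). Without WT replicate 2 it was -0.05 and without WT replicate 5 it was -0.13.

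Rpl22l1 is a copy of Rpl22, and Rpl22 protein is known to restrain Rpl22l1 mRNA. Rpl22l1 had 960, 819, 917, 889 and 511 in the WT hearts of the Dp3Tyb cohort and 950, 927, 820, 1060 and 379 in Dp3Tyb hearts. It had 451, 491, 733, 427 and 860 in WT hearts of the Ts1Rhr cohort and 489, 373, 821, 836 and 852 in Ts1Rhr hearts. Its share of the pair was 9.39% to 15.04% in the 7 hearts with a high mitochondrial share and 20.95% to 26.7% in the 13, with no overlap. Rpl22 itself lay at 2701 to 4121 and 2437 to 3057. Between genotypes the log2 ratio differed by -0.06 (exact p = 0.659) in the Dp3Tyb cohort and by 0.28 (exact p = 0.468) in the Ts1Rhr cohort. The latter was 0.07 without WT replicate 4 and 0.46 without Ts1Rhr replicate 2.

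Rpl36al and Rpl36a encode the same protein but for a few residues. Rpl36al had 1323, 1329, 1322, 1348 and 3268 in WT and 1374, 1376, 1476, 1380 and 2782 in Dp3Tyb hearts, and 2380, 2209, 1688, 3403 and 1429 in WT and 2429, 2542, 1471, 1721 and 1341 in Ts1Rhr hearts. It took 50.8% to 57.4% of the read count of the pair in the 7 hearts and 38.5% to 48.0% in the 13. The reference transcripts have 2188 bases for Rpl36al and 487 for Rpl36a, so the share does not compare the levels of both genes. Pseudogenes held 26.5% of the joint reads of Rpl36a, so this ratio is uncertain.

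In the other pairs the 2 sets of hearts overlapped. Rps27l took 18.04% to 33.6% of its pair with Rps27 in the 7 hearts and 15.3% to 22.3% in the 13, and 4 of the 7 lay above all of the 13 (medians 24.7% and 18.7%). Rps27rt, an intronless copy, took 1.68% to 2.59% and 1.14% to 1.82% of its pair, and 5 of the 7 lay above all of the 13 (medians 2.29% and 1.39%). Rps4l took 10.1% to 12.7% of its pair with the X-linked Rps4x in the 7 hearts and 8.64% to 11.1% in the 13. Rpl7l1, which is needed in ribosome assembly, took 8.89% to 10.5% and 9.35% to 11.2% of its pair with Rpl7. Because these copies are close in sequence, reads can be split between them in ways that the table does not show.

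**Figure D4:**
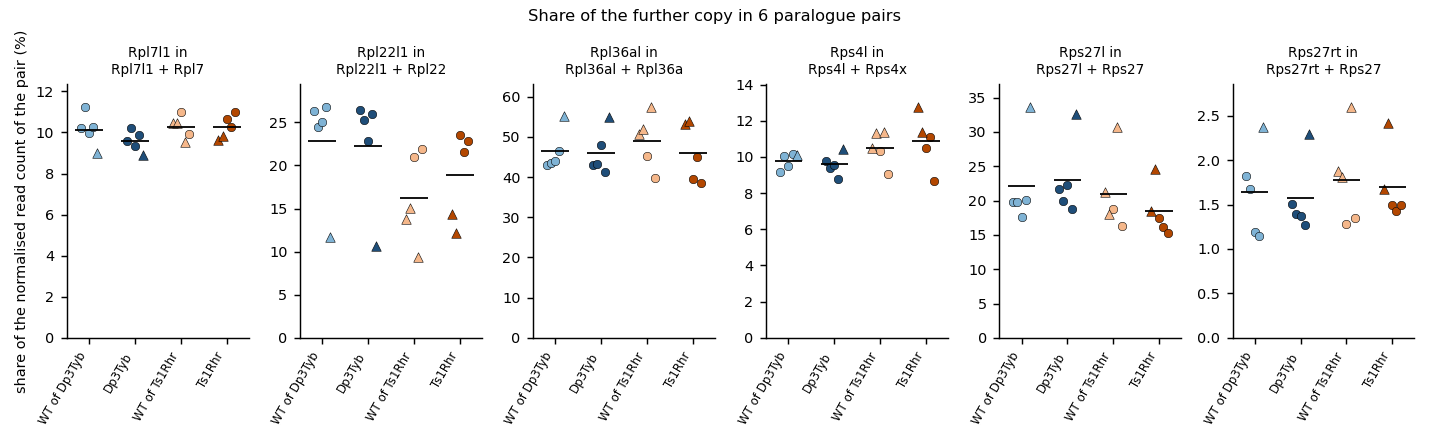
Share of the further copy in the summed normalised read count of its pair (y axis, percent, from 0) in 5 hearts of each group, with the group mean as a line. Triangles are hearts over 10% mitochondrial reads: they hold the lowest shares of Rpl22l1 and the highest of Rpl36al.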

How the data were processed

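Poly(A) mRNA libraries of 20 hearts were compared. The authors deposited 1 table of normalised values, a signal of reads per gene divided by a library factor. Per the labels, processing notes name Trimmomatic 0.36, STAR 2.5.2a, RSEM 1.2.31, DESeq2, DESeq and GRCm38, with no role or order. Annotation and strand are not given in the sources used here. All values (100%, tolerance 0.001) were whole multiples of 1 step per library, and reads recovered from the steps summed to 6.60 to 19.6 M reads. Counts of PCR fragments without molecular identifiers give counting error only. Nothing in the labels says that hearts were from separate litters, so p-values measure the spread between these samples.

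Of 48795 identifiers, 91.3% matched GENCODE vM39. limma 3.58.1 (R 4.3.3; trend, robust) was fitted to log2(value + 1), which understates the change of low genes, with genes at 10 or more in at least 5 libraries. The mitochondrial-share fit used edgeR 4.0.16 on whole reads with the same filter. limma was first run for it, at a filter of 10 and then of 100. Since false calls were too many on simulated data, 4 methods were compared at both filters over 5 simulated tables, and the choice was made on these alone: false calls were 4.35% of calls for edgeR and 30.2% for limma at a filter of 10, and 4.14% and 9.89% at 100, and edgeR recovered 77% of the changed genes. At a filter of 10 the 5 tables held 1000 changed genes in all, with 15248 to 15263 genes tested in each. The rate of false calls where 57.8% of genes are called, as in these hearts, was not tested. DESeq2 1.42.0 was an alternative. Members and lists were chosen with earlier results of these data known. Named genes were paralogue pairs, the 5 smallest p-values per cohort, the extremes of level and SD, and, chosen after the values were seen, genes with steep slopes. In all, 3 definitions of the pyrimidine run were tried and 1 is given.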

Additional observations from a re-analysis of the deposited data

Results flagged for a closer look

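Within a group of 5 hearts, 1 heart stood apart from the other 4 (Dixon's test at 95%) for 39 of 156 gene values, ratios and subunit shares examined. Chance would give about 1 in 20 for independent items. These items share hearts and genes, and some genes were named for a large SD, so that rate does not apply. Most came from replicate 5 of WT of Dp3Tyb (21) and replicate 5 of Dp3Tyb (12), the hearts of their cohort over 10% mitochondrial reads.

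In replicate 5 of WT of Dp3Tyb the large subunit share was 63.2% of ribosomal protein reads. Values were high for Rpl17 (7745), Rpl22 (3858), Rpl23a (8990), Rpl27 (1348), Rpl30 (3782), Rpl32 (6248), Rpl36a (2654), Rpl36al (3268), Rps23rg1 (49.9), Rps27l (974.8) and Rps3a1 (12020). They were low for Rpl10 (5755), Rpl3 (8048), Rps14 (1216), Rps2 (7111), Rps4l (837) and Rps4x (7428). Log2 ratios stood apart for Rpl22l1 to Rpl22 (-2.91), Rpl36al to Rpl36a (0.30) and Rps27l to Rps27 (-0.98).

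In replicate 5 of Dp3Tyb the large subunit share was 62.4%. Values were high for Rpl17 (6709), Rpl23a (8554), Rpl30 (3406), Rpl36al (2782) and Rps27l (779), and low for Rpl10 (5536), Rpl3 (8166), Rps14 (1491), Rps2 (7922) and Rps4x (7207). The log2 ratio of Rpl22l1 to Rpl22 was -3.07.

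In replicate 4 of WT of Ts1Rhr, Rpl22 (4121), Rpl32 (6134) and Rps23rg1 (30.6) were high. In Ts1Rhr hearts, Rpl37 was high in replicate 3 (2513), Rpl3l was high in replicate 4 (11.2) and Rps27 was low in replicate 2 (1814).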

How the results depend on the processing

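The count of 0 members in each genotype comparison was the same under every alternative run (other tools, scalings, pseudocounts and filters, array weights, left-out hearts, and, chosen after seeing the data, the mitochondrial share as a term or pseudogene reads merged). At an unadjusted p under 0.05, leaving out the Ts1Rhr hearts labelled with defects gave 15 members beside 16.5% of all genes, with 3 WT hearts over 10% mitochondrial reads set against none. Array weights gave 3, 6 and 16 members in the Dp3Tyb, Ts1Rhr and between-strain comparisons, beside 10.9%, 17.9% and 7.96%, and leaving out hearts over 10% gave 5, 0 and 8, beside 7.99%, 3.37% and 3.09%. With pseudogene reads merged Rpl27 in Dp3Tyb hearts was at 0.0841. Without the 7 hearts over 10% mitochondrial reads, 0 members followed the mitochondrial share, 52 of the 70 called members kept the sign of their slope, the slope of Rpl5 was -0.0030, of Rps26 0.00071, of Rpl23 0.025, of Rpl18 -0.038, of Rps19 -0.16, of Rpl22l1 -0.22 and of Rplp1 -0.25, while Rps14 (-0.15) and Rpl35 (0.08) moved little and Rpl36al was at 0.15, and the log2 ratio of Rps27rt to Rps27 in Ts1Rhr hearts was 0.16. Leaving out 1 heart at a time gave 67 to 74 members for the mitochondrial share, and turned the sign of some log2 ratios, none of which was past the threshold. In the Dp3Tyb cohort they ran from -0.34 (without WT replicate 5) to 0.24 (without Dp3Tyb replicate 5) for Rpl22l1, -0.15 to 0.11 for Rpl36al, -0.10 to 0.30 for Rps27l and -0.19 to 0.10 for Rps27rt, and kept their sign for Rpl7l1 (-0.13 to -0.05) and Rps4l (-0.07 to -0.0019). In the Ts1Rhr cohort they ran from -0.0291 to 0.0278 for Rpl7l1, -0.0208 to 0.14 for Rps4l and -0.18 to 0.10 for Rps27rt, and kept their sign for Rpl22l1 (0.07 to 0.46), Rpl36al (-0.31 to -0.05) and Rps27l (-0.36 to -0.03). The median over the members ran from -0.0062 (without Dp3Tyb replicate 4) to 0.034 in Dp3Tyb hearts and from -0.048 to 0.0029 (without Ts1Rhr replicate 2) in Ts1Rhr hearts, so its sign turned in both. Without WT replicate 5, Rpl27 in Dp3Tyb hearts was at -0.062, Rps23rg1 at -0.13 and Rpl29 at 0.053, and without WT replicate 4 Rps25 was at 0.025. Without WT replicate 4 of the Ts1Rhr cohort, Rpl30 was at -0.077, Rps27l at -0.094 and Rpl17 at -0.083. The causes were not tested. No paired analysis was possible because the labels carry no replicate number, litter or batch by which a mutant heart could be matched to a WT heart.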

Other observations

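Some genes that make or regulate ribosomes were also called in edgeR's test of the mitochondrial share over 20 hearts. Beside them, 28.4% of all genes were called higher and 29.3% lower, and no list was tested against other genes. Of 40 ribosome biogenesis genes 19 rose and 8 fell, and of 27 translation factors 14 rose and 6 fell. Eif3a, a scaffold subunit of initiation factor 3, rose with a slope of 0.07 (log2 per percentage point), and Eif3f of the same complex fell with -0.06. Both were chosen after their values were seen. Of 16 genes of RNA polymerase I and 5S transcription 5 rose and 7 fell, of 20 regulators 7 rose and 9 fell, and of 12 genes of the p53 response 2 rose and 5 fell. Rack1, a small subunit protein outside the symbol rule, fell with -0.08. Endothelial markers rose for 5 and fell for 2 of 8, epicardial markers rose for 2 and fell for 2 of 6, 1 of 7 lung and foregut markers fell, and neither of 2 liver markers passed.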
